A study of Mus musculus with 8 samples.

Results

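The Runx genes and their partner gene Cbfb were followed through 3 dendritic cell (DC) progenitor populations of mouse bone marrow. The family was taken by gene symbol, as Runx1, Runx2, Runx3 and Cbfb, over probe sets that the platform annotation assigns to exactly 1 gene. This gave 1 probe set each for Runx1 (10441003), Runx3 (10509030) and Cbfb (10574632), so that 3 of the 4 listed genes were measured, out of 19938 genes with such a probe set. All 3 passed the filter on low signal, as did 13356 genes in total. Runx2 was not analysed here.

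The arrays covered pre-CD8 DCs, committed precursors of the CD8a+ classical DC or cDC1 (2 arrays), Zeb2low common DC progenitors or CDPs (3 arrays), and Zeb2hi CDPs (3 arrays). All mice carried a Zeb2-GFP fusion reporter on 1 allele, so that the Zeb2hi CDPs shared this altered allele too, and the CDP fractions were split by the reporter. Strain, age, sort markers and the number of mice behind each array are not given in the labels. P-values therefore measure the spread between these arrays, which may be technical. The series set out to describe expression of DC progenitors and their order along development.

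RUNX proteins are transcription factors that bind DNA through the Runt domain and recognise the word TGTGGT. Each pairs with CBFb, a partner without DNA binding of its own that raises the affinity of the RUNX protein for DNA and protects it from degradation. Depending on the cofactor they recruit, RUNX complexes activate or repress. In the mouse, Runx1 is needed for the emergence of blood stem cells, Runx3 for cytotoxic T cells and Langerhans cells, and Runx2 for bone formation and for the exit of plasmacytoid DCs from the marrow. Runx genes are read from a distal and a proximal promoter, and their own products bind to them.

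The distal starts share a word that the choice of genes did not use. In the RefSeq promoter table of build GRCm38.p6, with windows from 250 bases before to 50 bases after a start, the distal windows of Runx1 and Runx3 and the only listed window of Runx2 each held ACCACA, the reverse complement of TGTGGT, in tandem copies with 2 bases between them. The stretches around the tandem are shown 5′ to 3′ on the strand of the gene, with the copies in capitals.
Runx1, distal start, chr16:92826025-92826060, minus strand: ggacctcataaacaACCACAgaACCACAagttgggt
Runx2, chr17:44814578-44814618, minus strand: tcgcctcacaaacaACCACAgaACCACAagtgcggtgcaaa
Runx3, distal start, chr4:135120497-135120538, plus strand: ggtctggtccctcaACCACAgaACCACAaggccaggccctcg

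The tandem lay from base 29 to base 42 after the start of Runx1 and from base 24 to base 37 after that of Runx2, while in Runx3 it lay upstream, from base -134 to base -121. Of 32851 windows of 300 bases, 7 held such a tandem on either strand (0.0213%), and 16.8% held TGTGGT on either strand at least once. The proximal windows of Runx1 and Runx3 and the Cbfb window held 0 copies of TGTGGT on either strand. The variant TGCGGT, present in 6.45% of windows, was found in the Runx2 window alone. A match is a description of the letters and not of binding.

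The distal windows of Runx1 and Runx3 also held CAGGTG once each, an E-box word of the kind bound by ZEB2, the factor that splits these progenitors. It was found on either strand in 20.2% of all windows, and together with TGTGGT in 3.61%. The whole distal window of Runx1 is shown because Runx1 is the member that differed between the groups. Capitals mark CAGGTG and the ACCACA copies.
Runx1, distal window, chr16:92826025-92826324, minus strand: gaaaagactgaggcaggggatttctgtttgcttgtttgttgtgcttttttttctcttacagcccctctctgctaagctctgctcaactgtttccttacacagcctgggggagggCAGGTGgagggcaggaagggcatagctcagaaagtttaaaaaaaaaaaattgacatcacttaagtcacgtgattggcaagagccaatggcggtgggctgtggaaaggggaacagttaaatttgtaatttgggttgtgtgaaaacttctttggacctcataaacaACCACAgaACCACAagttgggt

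**Figure D1:**
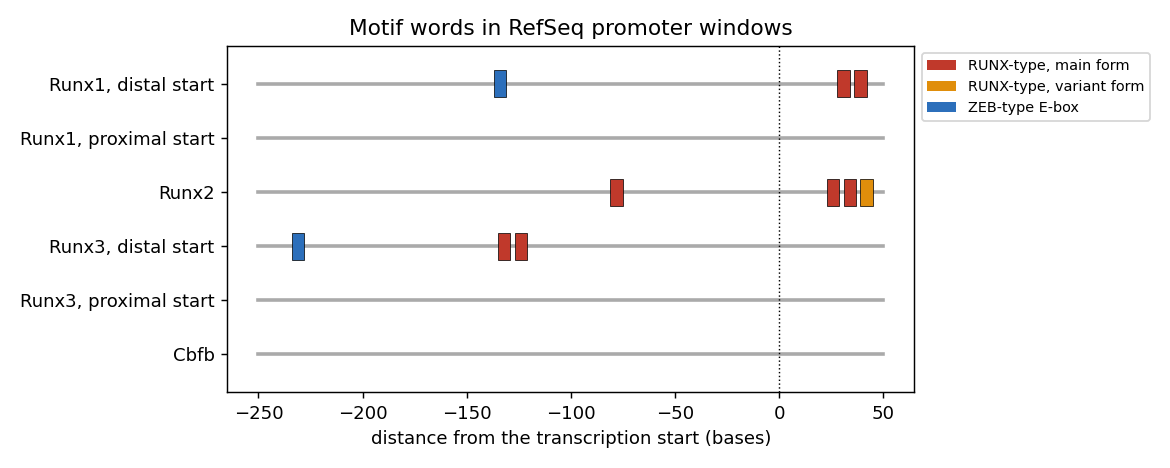
Motif words in the promoter windows of the 4 genes, by distance from the transcription start in bases. Red boxes mark the main RUNX-type word, the orange box its variant and blue boxes the ZEB-type E-box. The distal windows of Runx1 and Runx3 each hold a red tandem and 1 blue box, and the proximal windows and Cbfb hold none.

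The labels were checked first on Zeb2 itself, with Id2 and Batf3 as cDC1 factors. Zeb2 averaged a log2 signal of 6.73 in pre-CD8 DCs, 7.68 in Zeb2low CDPs and 9.27 in Zeb2hi CDPs. The groups followed their labels. Id2 averaged 10.5, 10.1 and 5.73 in the same order, and Batf3 8.56, 7.63 and 6.06. The CDP markers Flt3, Csf1r, Kit and Csf2ra lay above the 40th percentile on all 8 arrays. That percentile lay between 4.31 and 4.62 on the log2 scale, and the array medians between 4.91 and 5.14. Of 12 cDC1 markers, 11 lay above it on each pre-CD8 DC array, 10 on each Zeb2low and 8 to 9 on each Zeb2hi array, and Itgae was below it on every array. Across genes, arrays of 1 group correlated at r = 0.971 to 0.989 in Zeb2hi CDPs and 0.939 to 0.975 in Zeb2low CDPs. The pre-CD8 DC arrays correlated at 0.937 with each other.

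Runx1 was lower in Zeb2low CDPs and in pre-CD8 DCs than in Zeb2hi CDPs. RUNX1 acts in stem and early progenitor cells. The Runx1 signal lay well above the 40th percentile on all 8 arrays, those of the committed pre-CD8 DCs included. Its log2 signal was 8.24 and 8.27 on the pre-CD8 DC arrays. In Zeb2low CDPs it was 8.31, 8.52 and 8.66, and in Zeb2hi CDPs 9.54, 9.67 and 9.84. The Zeb2hi arrays were the 3 highest of the 8. None of the groups overlapped, though pre-CD8 DC and Zeb2low arrays were only 0.04 apart at the nearest. The share of all genes whose groups separate in this way is not given here. The Zeb2hi arrays lay at least 0.89 above every Zeb2low array and at least 1.27 above the pre-CD8 DC arrays.

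In Zeb2low CDPs Runx1 averaged 8.49 ± 0.18, against 9.68 ± 0.15 in Zeb2hi CDPs (SD, n = 3 each). The log2 difference was -1.19 ± 0.15 (limma SE, adjusted p = 0.0029), a 2.28-fold lower signal. Its 95% interval ran from 1.80-fold to 2.89-fold lower. By size this was number 343 of 1377 genes that fell in Zeb2low CDPs, which are 10.3% of all genes tested. In pre-CD8 DCs the signal was 8.26 ± 0.02 (SD, n = 2), and the difference from Zeb2hi CDPs was -1.43 ± 0.17 (adjusted p = 0.00123), a 2.69-fold lower signal with an interval of 2.07-fold to 3.50-fold. It was number 204 of 1483 genes that fell there (11.1% of all genes tested). The Zeb2hi arrays serve in both of these comparisons.

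In pre-CD8 DCs against Zeb2low CDPs, where 0.554% of all genes passed, Runx1 did not (-0.24 ± 0.17, limma adjusted p = 0.576). The pre-CD8 DC arrays lay below every Zeb2low array by at least 0.04, and the interval of the difference ran from -0.62 to 0.14. Against Zeb2hi CDPs Runx1 passed in every fit tried, 18 in Zeb2low CDPs and 17 in pre-CD8 DCs, with log2 differences of -1.35 to -0.92 and -1.50 to -1.27. The probe set gives 1 value for Runx1, so transcripts of the distal and of the proximal promoter were not told apart.

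In sorted bulk populations, fewer cells of a type and less RNA per cell cannot be told apart. Markers of stem and early progenitor cells were followed beside Runx1 for this reason. The summed signal of 7 such genes lay at 8.25 to 8.40 on the log2 scale in pre-CD8 DCs, 8.87 to 9.92 in Zeb2low CDPs and 10.1 to 10.8 in Zeb2hi CDPs. Its groups did not overlap, and how often sums of other genes separate in this way was not tested. The sum was led by Cd34 in the CDPs, at 7.75, 9.20 and 9.45 on the Zeb2low arrays against 9.67, 10.5 and 10.5 on the Zeb2hi arrays. The markers did not run one way. Of 6 tested in Zeb2low against Zeb2hi CDPs, 3 differences were positive and 3 negative (median -0.07). By limma 1 was higher and 1 lower, beside 4.5% and 10.3% of all genes tested. Procr was higher (4.47 in Zeb2low and 3.86 in Zeb2hi CDPs) and Meis1 lower, while Cd34 (-1.45 ± 0.44, adjusted p = 0.0577) and Gata2 (0.35 ± 0.14, adjusted p = 0.129) did not pass. In pre-CD8 DCs against Zeb2hi CDPs 3 were lower and 0 higher, beside 11.1% and 6.51% of all genes tested. Between the CDP fractions the replicate block over the CDP arrays alone gave 1 higher and 2 lower, and over all arrays 0 and 1. Mecom lay below the 40th percentile on all 8 arrays. Procr lay above it on 2, pre-CD8 DC array 2 and Zeb2low array 1, and below it on every Zeb2hi array. Procr was thus tested only through groups where it is high, and the filter favoured its higher sign. Granulocyte and monocyte markers did not run one way either. Ctsg lay at 7.10 to 8.45 in Zeb2low CDPs and 11.3 to 11.6 in Zeb2hi CDPs. Prtn3 lay at 8.61 to 9.71 and 11.01 to 11.83, and F13a1 at 7.90 to 8.19 and 10.5 to 10.6. These were lower in Zeb2low CDPs, but by sign 9 of 13 granulocyte differences were positive and 4 negative (median 1.34). Ngp lay at 10.7 to 12.5 in Zeb2low and 9.81 to 10.8 in Zeb2hi CDPs, and Cd68 at 9.50 to 10.1 and 8.92 to 9.05. By limma 3 of 13 granulocyte markers were higher in Zeb2low CDPs and 2 lower. Of 5 monocyte markers 1 was higher and 1 lower (4 positive and 1 negative by sign). The part of stem, progenitor, granulocyte or monocyte cells in the Runx1 difference was not tested.

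**Figure D2:**
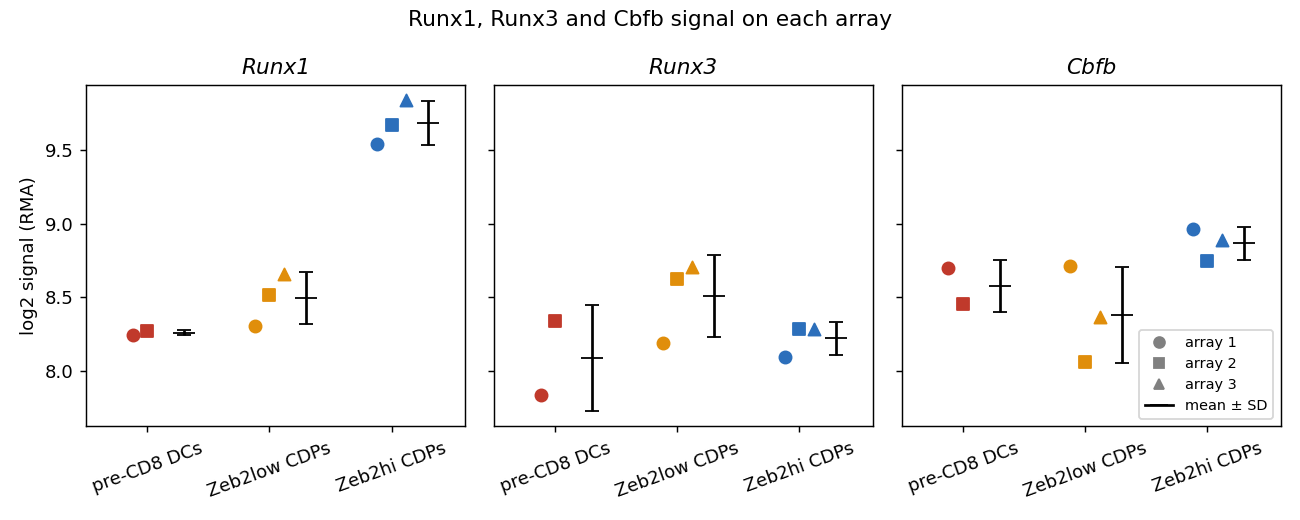
Log2 signal of Runx1, Runx3 and Cbfb on each of the 8 arrays, by group, with array numbers as marker shapes and the group mean ± SD as black bars. The 3 Zeb2hi arrays stand at 9.54 to 9.84 for Runx1, above all other arrays, while the groups overlap for Runx3.

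Runx3 did not pass in any comparison. RUNX3 acts in cytotoxic lymphocytes and in some DC types of the mouse. Its log2 signal was 7.83 and 8.34 in pre-CD8 DCs, 8.19, 8.62 and 8.71 in Zeb2low CDPs, and 8.09, 8.28 and 8.29 in Zeb2hi CDPs. All 3 groups overlapped, and every array lay well above its 40th percentile. The lowest and the highest values of Runx3 in Zeb2low CDPs were 0.52 apart, and the pre-CD8 DC arrays 0.51.

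In Zeb2low CDPs Runx3 averaged 8.51 ± 0.28, against 8.22 ± 0.11 in Zeb2hi CDPs (SD, n = 3 each). The difference was 0.29 ± 0.19 (limma adjusted p = 0.326), with an interval from 0.898-fold to 1.65-fold. In pre-CD8 DCs it averaged 8.09 ± 0.36 (SD, n = 2). This was -0.42 ± 0.22 from Zeb2low CDPs (adjusted p = 0.439) and -0.13 ± 0.22 from Zeb2hi CDPs (adjusted p = 0.715). The intervals ran from 0.531-fold to 1.05-fold and from 0.648-fold to 1.28-fold. The pre-CD8 DC arrays lay -0.25 and 0.25 from their mean, equal and opposite because the group holds 2 arrays. Without array 1 the difference was -0.17 from Zeb2low CDPs and 0.12 from Zeb2hi CDPs. Without array 2 it was -0.67 and -0.39.

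T, NK and innate lymphoid cells carry much Runx3, and their markers were set beside it. Of 13 such markers, 5 to 8 lay above the 40th percentile on the pre-CD8 DC arrays, 5 to 7 on the Zeb2low and 4 to 5 on the Zeb2hi arrays. Cd3e, Thy1, Nkg7 and Tbx21 lay above it on all 8 arrays and Cd3d on 6, while Cd3g, Ncr1, Klrb1c and Gata3 lay below it on all 8. The summed log2 signal ran from 9.69 to 9.85 in pre-CD8 DCs, 9.35 to 10.1 in Zeb2low CDPs and 8.93 to 9.14 in Zeb2hi CDPs. In Zeb2low against Zeb2hi CDPs 4 of 7 tested markers were higher and 0 lower (7 and 0 by sign). Cd2 and Eomes were among the 7 only through pre-CD8 DC array 1 and Zeb2low array 2. On all Zeb2hi arrays they lay below the percentile, so the filter favoured their higher sign. Over all genes tested 4.5% were higher and 10.3% lower. The part of these markers in the Runx3 values was not tested. Without 1 array the higher count ran from 1 to 6, and it was 6 with the replicate block over the CDP arrays alone and 1 with the block over all arrays.

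The gap between Runx3 and Runx1 on 1 array set the Zeb2hi CDPs apart. The within-array difference of Runx3 minus Runx1 was -0.41 and 0.07 in pre-CD8 DCs and -0.12, 0.11 and 0.05 in Zeb2low CDPs, against -1.45, -1.39 and -1.55 in Zeb2hi CDPs. The Zeb2hi arrays stood at least 0.97 below all others in this difference. These values use the probe sets of both genes on 1 array, so their level has no meaning of its own, and only the gap between groups can be read. Most of the gap repeats the Runx1 result, as Zeb2low differed from Zeb2hi CDPs by -1.19 in Runx1 and by 0.29 in Runx3. The gap is a description with no test.

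**Figure D3:**
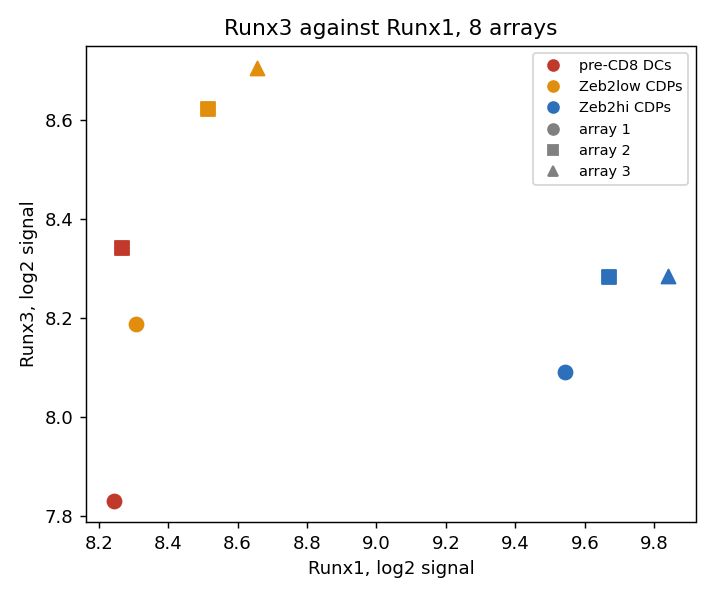
Log2 signal of Runx3 against that of Runx1 on the 8 arrays, with colours for groups and shapes for array numbers. The Zeb2hi arrays stand apart on the Runx1 axis and lie among the others on the Runx3 axis.

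Cbfb, the common partner, had lower values in Zeb2low CDPs but did not pass. Its log2 signal was 8.70 and 8.45 in pre-CD8 DCs, 8.71, 8.06 and 8.37 in Zeb2low CDPs, and 8.96, 8.75 and 8.89 in Zeb2hi CDPs. The Zeb2hi arrays were the 3 highest, but by only 0.04 over the nearest Zeb2low array and 0.05 over the nearest pre-CD8 DC array. Among Zeb2low CDPs array 1 was high and array 2 low, with 0.65 between them.

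Cbfb averaged 8.38 ± 0.33 in Zeb2low CDPs and 8.87 ± 0.11 in Zeb2hi CDPs (SD, n = 3 each). The difference was -0.49 ± 0.19 (limma adjusted p = 0.11, unadjusted p = 0.028), and its interval ran from 1.05-fold to 1.88-fold lower. In pre-CD8 DCs the signal was 8.58 ± 0.18 (SD, n = 2). This was 0.20 ± 0.21 from Zeb2low CDPs (adjusted p = 0.715) and -0.29 ± 0.21 from Zeb2hi CDPs (adjusted p = 0.38), with intervals from 0.827-fold to 1.59-fold and from 0.59-fold to 1.13-fold.

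The Cbfb value between Zeb2low and Zeb2hi CDPs depended on the setting. With a replicate block in a fit of the CDP arrays alone it passed (-0.49, adjusted p = 0.0373), and with the block over all arrays it did not (adjusted p = 0.0901). It passed without Zeb2low array 1 (-0.65, adjusted p = 0.045) and with array weights (-0.55, adjusted p = 0.0154). Centring arrays on their medians moved the median of all genes by -0.16 and Cbfb to -0.65 (adjusted p = 0.0357), while quantile normalization moved Cbfb to -0.26 (adjusted p = 0.467).

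**Figure D4:**
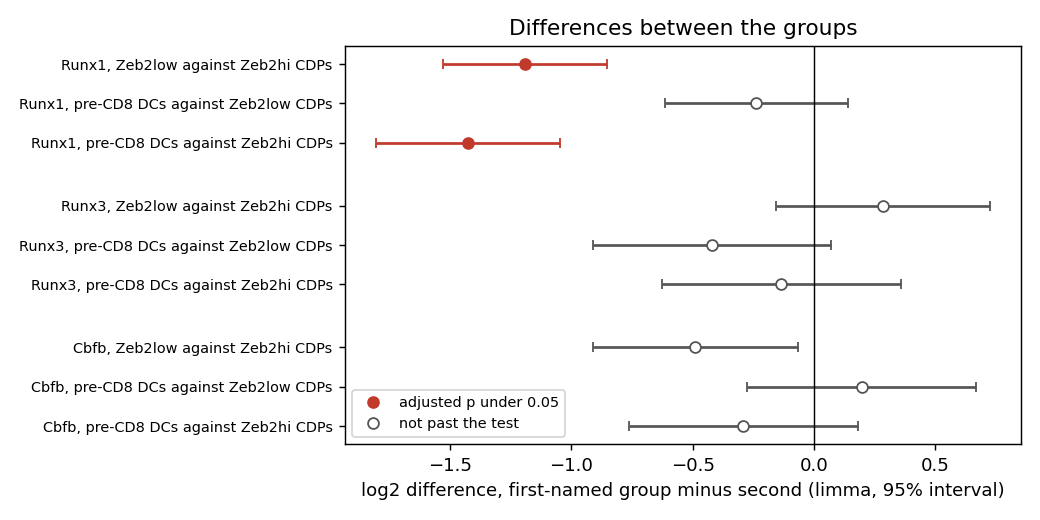
Log2 differences with 95% intervals for the 3 genes in the 3 comparisons, the first-named group minus the second. Filled red points passed at an adjusted p under 0.05, and these are the Runx1 differences of -1.19 and -1.43 against Zeb2hi CDPs.

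Of the 3 measured genes, 1 was lower in Zeb2low than in Zeb2hi CDPs and 0 higher, where 10.3% of all genes tested were lower and 4.5% higher. In pre-CD8 DCs against Zeb2hi CDPs 1 was lower and 0 higher, against 11.1% and 6.51%. Between pre-CD8 DCs and Zeb2low CDPs 0 of 3 passed by limma and 0 had an unadjusted p under 0.05, where 0.554% of all genes passed. Of the genes called between the CDP fractions 30.4% were higher, but 40.9% after quantile normalization and 14.2% after centring on array medians. In pre-CD8 DCs against Zeb2low CDPs the share was 60.8% and 72.3% after centring. With 1 member called in each of 2 comparisons, these counts show nothing particular to the family.

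Cofactors decide whether a RUNX complex activates or represses. Of 25 listed genes 21 were tested. In Zeb2low against Zeb2hi CDPs 1 was higher and 2 lower, near the 4.5% higher and 10.3% lower of all genes tested. The median log2 difference was 0.06 against 0.03 over all genes. With the replicate block over the CDP arrays alone 2 were higher and 4 lower, and over all arrays 0 and 2. Without a block the lower ones were Hdac3, the deacetylase of nuclear corepressor complexes (-1.55 ± 0.35, limma adjusted p = 0.0224), and Prmt1, which methylates arginines of RUNX1 (-1.18 ± 0.34, adjusted p = 0.0496). Crebbp, a coactivator that acetylates histones, was higher (0.49 ± 0.14, adjusted p = 0.0451).

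Of the 21 cofactors, 2 in pre-CD8 DCs against Zeb2hi CDPs were higher and 1 lower, beside 6.51% higher and 11.1% lower of all genes tested. The median was 0.09 against -0.02 over all genes. With the replicate block over all arrays 1 was higher and 2 lower. Cbfa2t3, a corepressor related to the fusion partner of RUNX1 in human leukaemia, was higher (1.24 ± 0.32, limma adjusted p = 0.0312). Ep300, the paralogue of Crebbp, was higher as well (0.63 ± 0.19, adjusted p = 0.048). Bmi1, a Polycomb subunit, was lower (-1.26 ± 0.18, adjusted p = 0.00281). Against Zeb2low CDPs, 0 of 21 in pre-CD8 DCs passed by limma, with 0 higher and 2 lower at an unadjusted p under 0.05. The smallest p belonged to Bmi1 (-0.94 ± 0.18, adjusted p = 0.0715) and Prmt6, an arginine methyltransferase (-0.61 ± 0.19, adjusted p = 0.224, and -0.39 without pre-CD8 DC array 1). The median was 0.06 against -0.03 over all genes.

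Kinases and ubiquitin ligases that modify RUNX proteins moved in both directions. Of 18 listed 16 were tested, and in Zeb2low against Zeb2hi CDPs 2 were higher and 4 lower, beside 4.5% and 10.3% of all genes (median -0.06, against 0.03 over all genes). Without 1 array 1 to 2 were higher and 2 to 5 lower. The largest difference was that of Cdk6, a cell cycle kinase that binds RUNX1, at 8.70 in Zeb2low and 10.4 in Zeb2hi CDPs (-1.72 ± 0.17, limma adjusted p = 0.00106). Hipk2, a kinase that phosphorylates RUNX1, ran the other way, at 9.43 in Zeb2low and 8.05 in Zeb2hi CDPs (1.38 ± 0.20, adjusted p = 0.00533). Stub1, a chaperone-linked ubiquitin ligase, fell (-0.94 ± 0.16, adjusted p = 0.00904), as did the mitotic genes Cdk1 (-0.83 ± 0.15, adjusted p = 0.0108) and Cdc20 (-0.80 ± 0.20, adjusted p = 0.0315). Smurf1, a ligase known to act on RUNX2, rose (0.57 ± 0.15, adjusted p = 0.0328). With the replicate block over all arrays 1 of the 16 was higher and 4 lower.

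Against Zeb2hi CDPs, 2 of these 16 genes in pre-CD8 DCs were higher and 3 lower, beside 6.51% and 11.1% of all genes (median -0.10, against -0.02 over all genes). With the replicate block over all arrays 1 was higher and 2 lower. Cdk6 was 6.67-fold lower (-2.74 ± 0.19, limma adjusted p = 8.52e-05) and Hipk2 3.31-fold higher (1.73 ± 0.23, adjusted p = 0.00212). Smurf1 was higher (0.68 ± 0.16, adjusted p = 0.0218). Stub1 (-0.85 ± 0.18, adjusted p = 0.0148) and Cdk1 (-0.81 ± 0.17, adjusted p = 0.0136) were lower. In pre-CD8 DCs against Zeb2low CDPs 0 of 16 passed by limma, with 1 higher and 2 lower at an unadjusted p under 0.05 (median 0.06, against -0.03 over all genes). Cdk6 came nearest (-1.02 ± 0.19, adjusted p = 0.0618) and passed without Zeb2low array 1 (adjusted p = 0.0367). Skp2, a ligase subunit, followed (-0.92 ± 0.28, adjusted p = 0.226), at -0.49 without pre-CD8 DC array 1.

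Transcription factors that act with RUNX1 on blood progenitor enhancers were counted next. Of 15 listed 14 were tested, and in Zeb2low against Zeb2hi CDPs 4 were lower and 1 higher, where all genes too held more lower (10.3%) than higher calls (4.5%). The lower count ran from 1 to 4 without 1 array. The median was -0.35, against 0.03 over all genes, and 11 of the 14 differences were negative. With the replicate block over the CDP arrays alone 5 were lower and 1 higher, and over all arrays 3 and 0. Lyl1 (-1.15 ± 0.29, limma adjusted p = 0.0322) and Lmo2 (-1.10 ± 0.24, adjusted p = 0.021) encode members of the stem cell complex around TAL1. Meis1, a homeobox factor (-0.85 ± 0.14, adjusted p = 0.00756), and Erg, an ETS factor of stem cells (-0.83 ± 0.22, adjusted p = 0.0393), were also lower. Ets1, which binds DNA together with RUNX1, was higher at a low signal, 5.34 in Zeb2low and 4.39 in Zeb2hi CDPs (0.95 ± 0.24, adjusted p = 0.0295).

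Of these 14 factors, 4 in pre-CD8 DCs against Zeb2hi CDPs were lower and 1 higher, beside 11.1% and 6.51% of all genes (median -0.52, against -0.02 over all genes). Erg (-1.49 ± 0.25, limma adjusted p = 0.00548), the proto-oncogene Myb (-1.45 ± 0.21, adjusted p = 0.00335), Meis1 (-1.15 ± 0.16, adjusted p = 0.00241) and the ETS factor Elf1 (-1.06 ± 0.18, adjusted p = 0.00588) were lower. Ets1 was higher (1.50 ± 0.26, adjusted p = 0.00674). Of the 14, 0 in pre-CD8 DCs against Zeb2low CDPs passed by limma, with 1 higher and 3 lower at an unadjusted p under 0.05 (median -0.12, against -0.03 over all genes). Myb (-1.05 ± 0.21, adjusted p = 0.0876) and Elf1 (-0.62 ± 0.18, adjusted p = 0.196) had the smallest p.

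Genes with elements that RUNX proteins are known to bind in mouse or human blood cells were the last list. Of 24 listed 15 passed the filter. In Zeb2low against Zeb2hi CDPs 2 were higher and 0 lower by limma (4 and 2 at an unadjusted p under 0.05), beside 4.5% and 10.3% of all genes. The median was 0.07 against 0.03 over all genes, with 8 positive and 7 negative differences. With the replicate block over the CDP arrays alone 4 were higher and 2 lower. Zbtb7b, which Runx proteins silence in cytotoxic T cells of the mouse, was higher (1.29 ± 0.18, adjusted p = 0.0046), at 7.65 in Zeb2low and 6.36 in Zeb2hi CDPs. Il7r, the interleukin 7 receptor, was higher too (1.08 ± 0.26, adjusted p = 0.0271). In pre-CD8 DCs against Zeb2hi CDPs 4 were higher and 2 lower, beside 6.51% and 11.1% of all genes. The median was 0.15 against -0.02 over all genes, and 11 of 15 differences were positive. With the replicate block over all arrays 1 was higher and 2 lower.

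Zbtb7b led the higher ones in pre-CD8 DCs (1.87 ± 0.21, limma adjusted p = 0.000995), at 8.22 against 6.36 in Zeb2hi CDPs. Cd8a, the coreceptor that gives the CD8a+ DC its name, followed (1.10 ± 0.31, adjusted p = 0.0393). Its difference was 0.51 without pre-CD8 DC array 1 (adjusted p = 0.182) and 1.69 without array 2. The integrin genes Itgad (0.65 ± 0.19, adjusted p = 0.0428) and Itga2b (0.54 ± 0.16, adjusted p = 0.0437) were higher at low signals. Csf1r, the receptor of a macrophage growth factor, was lower (-1.75 ± 0.32, adjusted p = 0.00779), beside Myb as above. Cd8a, Itga2b and Csf1r also stand in the cDC1, megakaryocyte and CDP marker lists, and Meis1 among the stem cell markers. Against Zeb2low CDPs, 0 of 15 in pre-CD8 DCs passed by limma (2 higher and 3 lower at an unadjusted p under 0.05), with a median of 0.39 against -0.03 over all genes and 10 of 15 differences positive. Il7r had -1.01 ± 0.29 (adjusted p = 0.199) there, beside Myb.

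**Figure D5:**
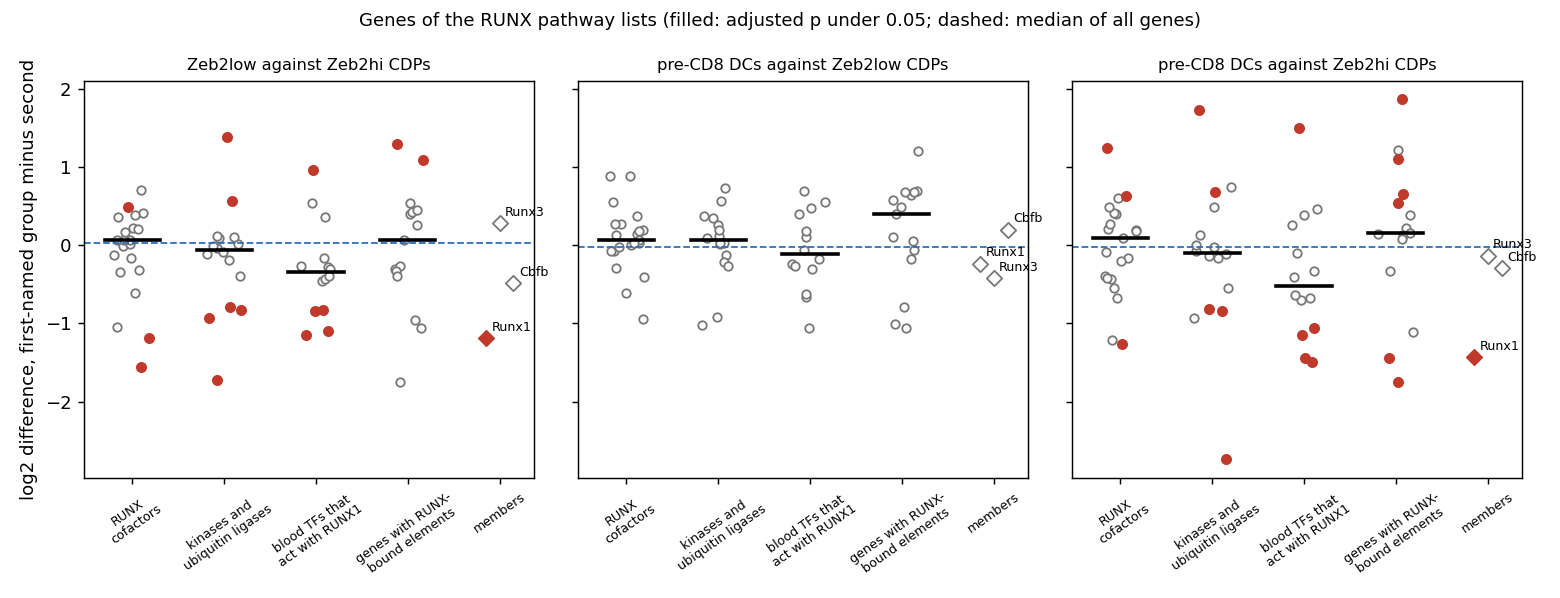
Log2 differences of the genes of the 4 RUNX pathway lists and of the 3 measured members (diamonds) in the 3 comparisons. Filled points passed at an adjusted p under 0.05, black bars are list medians, and the dashed line is the median of all genes tested. No listed gene passed between pre-CD8 DCs and Zeb2low CDPs.

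Of the 16 named genes called between Zeb2low and Zeb2hi CDPs, 5 were called in all 8 fits that left out 1 array, namely Hipk2, Cdk6, Stub1, Meis1 and Zbtb7b. Prmt1 was lost without either pre-CD8 DC array (adjusted p = 0.056 and 0.0561). Crebbp, Prmt1, Smurf1, Cdc20 and Erg were lost without any 1 Zeb2low array, as were Lyl1 and, without arrays 1 and 3, Lmo2, and, without arrays 2 and 3, Ets1 (adjusted p of 0.0506 to 0.129). Without Zeb2hi array 1, Crebbp, Smurf1, Ets1, Erg and Il7r were lost (adjusted p of 0.067 to 0.0921). Without Zeb2hi array 2 or array 3, Hdac3, Cdk1, Cdc20, Lyl1, Lmo2 and Prmt1 were lost beside those (adjusted p of 0.0573 to 0.174 and 0.0534 to 0.16). With the replicate block on all 8 arrays, Crebbp, Smurf1, Ets1 and Erg did not pass (adjusted p of 0.0677 to 0.0836).

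Of the 18 called between pre-CD8 DCs and Zeb2hi CDPs, 10 were called in all 8 such fits, namely Bmi1, Hipk2, Cdk6, Ets1, Erg, Myb, Meis1, Elf1, Zbtb7b and Csf1r. Myb counts once among them, though it stands in 2 lists. Without pre-CD8 DC array 1, Ep300, Cdk1, Cd8a, Itgad and Itga2b were lost (adjusted p of 0.078 to 0.217), and without array 2 Cbfa2t3, Ep300, Smurf1, Stub1 and Itgad (adjusted p of 0.0731 to 0.158). Without Zeb2low array 2 or array 3, Ep300, Cd8a, Itgad and Itga2b were lost (adjusted p of 0.0553 to 0.0704 and 0.0575 to 0.069). Without Zeb2hi array 1 this held for Cbfa2t3, Smurf1, Cd8a and Itga2b (adjusted p of 0.0515 to 0.0849). Without Zeb2hi array 2 or array 3, Cbfa2t3, Ep300, Smurf1, Stub1, Cd8a, Itgad and Itga2b were lost, and without array 2 Cdk1 also (adjusted p of 0.0543 to 0.153 and 0.0553 to 0.137). The same block left Ep300, Smurf1, Stub1, Cd8a, Itgad and Itga2b without a call (adjusted p of 0.0545 to 0.118).

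The genes most like each member were ranked by Pearson's r of log2 signal over the 8 arrays, which share group differences and array numbers, so that r is a description. Closest to Runx1 were Mib1, a ubiquitin ligase of Notch ligands (r = 0.993), Kansl2, a subunit of a histone acetyltransferase complex (0.992), Chdh, choline dehydrogenase (0.991), and Akr1e1, an aldo-keto reductase (0.990). The most opposite to Runx1 were the interferon-inducible Ifi205 (-0.992), the adhesion gene Alcam (-0.989), Myadm (-0.989) and the surface receptor gene Slamf7 (-0.989). Ifi205 averaged 10.5 in pre-CD8 DCs, 9.53 in Zeb2low CDPs and 4.57 in Zeb2hi CDPs, the reverse of the Runx1 order.

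For Runx3, whose groups overlapped, the closest genes were Celsr1, a cadherin of planar polarity (r = 0.980), the kinase gene Camkk2 (0.976), Acin1 (0.965) and Foxe3 (0.965). The most opposite were Sptlc2, a subunit of serine palmitoyltransferase (-0.980), Klhl28 (-0.957), Fpgt (-0.919) and Hsd17b11 (-0.919). Closest to Cbfb were Mthfsd (0.957), Lin7c (0.956), Churc1 (0.942) and Mrpl24, a mitochondrial ribosomal protein gene (0.941). Lin7c averaged 8.64 in pre-CD8 DCs, 8.39 in Zeb2low CDPs and 9.04 in Zeb2hi CDPs, the same order as Cbfb.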

How the data were processed

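Small amounts of RNA from sorted marrow cells were amplified by a whole-transcriptome kit before hybridisation, per the labels' protocols. For each probe set of the Affymetrix array the authors deposited a linear intensity, made with Affymetrix Expression Console and RMA, per the submitters' processing notes. No version or genome build is given in the sources used here. There is no detection call, and a gene close to the floor can show only part of its difference.

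The 28853 probe sets were log2 transformed. Of those assigned to exactly 1 gene (21789), the one with the highest mean stood for its gene, and a gene was tested if its signal exceeded the 40th percentile on 2 or more arrays (13356 genes). All 8 arrays entered 1 fit of limma 3.58.1 in R 4.3.3 (lmFit and eBayes, two-sided, 5 residual degrees of freedom), with Benjamini-Hochberg adjustment over all genes in each comparison and a threshold of 0.05. A value after ± with a difference is the SE, and a fold is on the signal scale. The fit was tested on simulated data. Few arrays limit the precision.

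Deviations from the group mean correlated over genes between Zeb2low and Zeb2hi arrays of the same number (r = 0.478, 0.407 and 0.308). This is a hint from the values that the numbers pair the CDP arrays. Pre-CD8 DC arrays 1 and 2 had r of -0.401 and -0.587 with the Zeb2low arrays of their number. With the Zeb2hi arrays r was -0.172 and -0.312. The block over all arrays thus assumes a pairing of pre-CD8 DC arrays that these values do not show. The reported fit has no block. Blocked values are given for the reported list counts that they change, and not for every gene. The members and lists were chosen with earlier results of these data known. Named were the members, up to 4 genes per list, direction and comparison past the test (or the 2 with the smallest p), and the genes most like a member. Promoter sequences are from RefSeq, GRCm38.p6.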

Additional observations from a re-analysis of the deposited data

How the results depend on the processing

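Runx1 passed against Zeb2hi CDPs under every alternative run, and Runx3 under none. Runx3 in pre-CD8 DCs against Zeb2hi CDPs ran from -0.39 to 0.12 when 1 array was left out, and changed sign without pre-CD8 DC array 1. Cbfb between Zeb2low and Zeb2hi CDPs passed when centred on array medians (-0.65), with array weights (-0.55), with a replicate block over the CDP arrays alone (-0.49), and without Zeb2low array 1, in a range of -0.65 to -0.33 without 1 array. The causes were not tested. The blocks changed no other call of Runx1, Runx3 or Cbfb.

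The genes called moved more. Between the CDP fractions 1978 became 4467 with array weights, 4070 with a replicate block over the CDP arrays alone, and 532 to 2222 without 1 array (1057 and 1022 without Zeb2low array 2 or 3, 532 and 578 without Zeb2hi array 2 or 3). Between pre-CD8 DCs and Zeb2low CDPs 74 became 15 with the replicate block over all arrays and 16 in a fit of these groups alone, and 20 to 117 without 1 array (20 and 117 without pre-CD8 DC array 1 or 2, 33 and 21 without Zeb2low array 2 or 3, 25 and 37 without Zeb2hi array 2 or 3). Between pre-CD8 DCs and Zeb2hi CDPs 2352 became 1173 to 2779 without 1 array (1278 without pre-CD8 DC array 1, 1173 and 1257 without Zeb2hi array 2 or 3). Where pre-CD8 DCs were left with 1 array, that array was assumed to vary like the other groups.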

Other observations

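Within the CDP fractions, Runx1 varied by array number in the same way. Arrays 1, 2 and 3 deviated from their group mean by -0.19, 0.02 and 0.16 in Zeb2low CDPs and by -0.14, -0.01 and 0.16 in Zeb2hi CDPs. Runx3 deviated by -0.32, 0.12 and 0.20 in Zeb2low CDPs and by -0.13, 0.06 and 0.07 in Zeb2hi CDPs. For Cbfb the values were 0.33, -0.32 and -0.01 in Zeb2low CDPs and 0.10, -0.12 and 0.02 in Zeb2hi CDPs, so that array 1 was lowest for both Runx genes and highest for Cbfb in each fraction.

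The tandem of the RUNX-type word was found in the windows of 4 genes beside Runx1, Runx2 and Runx3, namely Olfr24, an olfactory receptor gene, and the predicted genes Gm12236, Gm15462 and Gm16225.

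In Zeb2low against Zeb2hi CDPs, 3 of 13 granulocyte markers were higher and 2 lower, with 0 to 5 higher when 1 array was left out. With a replicate block 9 were higher and 3 lower over the CDP arrays alone, and 1 higher and 2 lower over all arrays. Of plasmacytoid DC markers 5 of 8 were higher (0 to 5 without 1 array), and of B cell markers 2 of 7 were higher and 1 lower (4 and 1 in the blocked fit of the CDP arrays). Ccr9 and Cd79a, among these markers, lay below the 40th percentile on every Zeb2hi array, so the filter favoured their higher sign. For the plasmacytoid DC markers the block gave 5 higher and 1 lower over the CDP arrays alone, and 4 and 1 over all arrays. Of 4 osteoblast and stroma markers 0 passed by limma. Over all genes tested 4.5% were higher and 10.3% lower in this comparison. The summed granulocyte signal lay at 15.01 to 15.86 on the log2 scale in pre-CD8 DCs, 14.56 to 15.62 in Zeb2low CDPs and 14.60 to 15.03 in Zeb2hi CDPs.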
